A study of Callithrix jacchus with 3 samples.

Results

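Fibrillar collagens and mesenchymal genes were examined in marmoset cells kept as pluripotent cells. The genes were listed by symbol, with earlier results of these data known: COL1A1, COL1A2, COL3A1, COL5A1, COL5A2, COL6A3, LOX, FBN1, TAGLN and THY1. Of these 10 genes, 8 matched a gene ID among the 30811 counted. LOX and THY1 did not match one and were dropped. The samples were 3 RNA sequencing libraries of 1 group, labelled as extended pluripotent stem cells of the common marmoset (Callithrix jacchus). Per the series' title and design text, they came from attempts to obtain such cells from embryonic stem cells, and were called EPSC-like. The labels name no treatment, medium, feeder layer, passage or parental cells for comparison, and the 3 titles differ only in their number, so the libraries may share 1 line. Nothing says that they came from separate cultures, so the spread between them, and p-values based on it, may be technical.

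Fibrillar collagens are secreted as procollagens of 3 chains wound into a triple helix, trimmed outside the cell and assembled into cross-linked fibrils. Type I collagen, the main fibril of bone, tendon and skin, is usually a trimer of COL1A1 and COL1A2 chains, with COL1A1 in excess, while COL3A1 chains form type III fibrils of elastic tissues and COL5A1 and COL5A2 chains help to start and size fibrils. Fibroblasts and other mesenchymal cells are the best known producers, and pluripotent stem cells are epithelial in character.

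Replicates 1, 2 and 3 held 52327369, 55224475 and 40593244 counts. The 9 matched markers of pluripotent cells, among them POU5F1, NANOG and SOX2, were all called above 1 CPM. CPM are counts per 1000000 counts, scaled between libraries by the TMM method. The same call was made for 78.3% of the tested genes with a symbol, so the markers do not test the cells' label. Replicate 3 stood apart: at an adjusted p under 0.05 and at least 1.5-fold, 2366 of 23432 genes were lower and 1439 higher in it than in replicate 1, against 148 lower and 102 higher in replicate 2 than in replicate 1. No label shows whether replicates 1 and 2 are repeats of 1 sample. Results that rest on replicate 3 are therefore given beside those from the other libraries.

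All 8 matched genes were expressed in every library. Each was called above 1 CPM at an adjusted p under 0.05, by edgeR with Benjamini-Hochberg adjustment over 23432 genes. The p was the larger of those of the quasi-likelihood F statistic and a Poisson likelihood-ratio test. The same call was made for 56% of all genes tested and for 78.3% of the 12174 tested genes with a symbol, so 8 of 8 is a description of these genes and no more. All 8 were also called without replicate 3. At 10 CPM, 6 of 8 were called above the level, against 37.6% of all genes, whereas neither COL6A3 nor FBN1 passed that test (adjusted p = 0.589 and 0.148, edgeR). By mean CPM with no test, 7175 of the 12174 tested genes with a symbol reached 10 CPM. All 8 matched genes did so too, with COL6A3 at 10.6 and FBN1 at 13.7 CPM. The count of 6 of 8 thus also only describes the genes. CPM values are not divided by transcript length, so they compare 1 gene across libraries and do not rank the genes.

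COL1A1, the alpha 1 chain of type I collagen, had 28563, 28377 and 16465 counts in replicates 1, 2 and 3. Its level was 546, 516 and 404 CPM, with a mean of 489 ± 74.96 CPM (SD, n = 3). The value in replicate 3 was the low one, and the coefficient of variation was 15.3%. COL1A2, the alpha 2 chain of the same trimer, had 2854, 2586 and 1025 counts. That gave 54.6, 47.0 and 25.1 CPM, with a coefficient of variation of 36.2%. The 2 chains thus had the same order of libraries, and the gap between replicate 3 and the others was wider for COL1A2.

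COL3A1, the single chain of type III collagen, stood at 27.7, 22.8 and 18.1 CPM. COL5A1 and COL5A2, the chains of the common type V trimer, stood at 35.2, 33.6 and 21.8 CPM and at 24.9, 23.8 and 12.2 CPM. For both type V chains the first 2 libraries lay close together and replicate 3 was lower. In the RefSeq annotation of assembly calJac240_pri, COL5A2 and COL3A1 lie side by side with 0 annotated genes between them. The values in replicate 3 were 0.490 of that in replicate 1 for COL5A2 and 0.656 of it for COL3A1.

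COL6A3 is a chain of type VI collagen, which forms beaded filaments around cells and is not itself fibrillar. It was at 12.7, 10.9 and 8.09 CPM. FBN1 encodes fibrillin 1, the backbone of extracellular microfibrils, and stood at 19.0, 16.3 and 5.79 CPM. It had the widest spread of the 8 genes, with a coefficient of variation of 51.0%. TAGLN, which encodes the actin-binding protein transgelin of smooth muscle and activated fibroblasts, was at 63.7, 61.0 and 62.0 CPM. It had the narrowest spread, with a coefficient of variation of 2.20%, and its value in replicate 3 fell between the other 2.

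**Figure D1:**
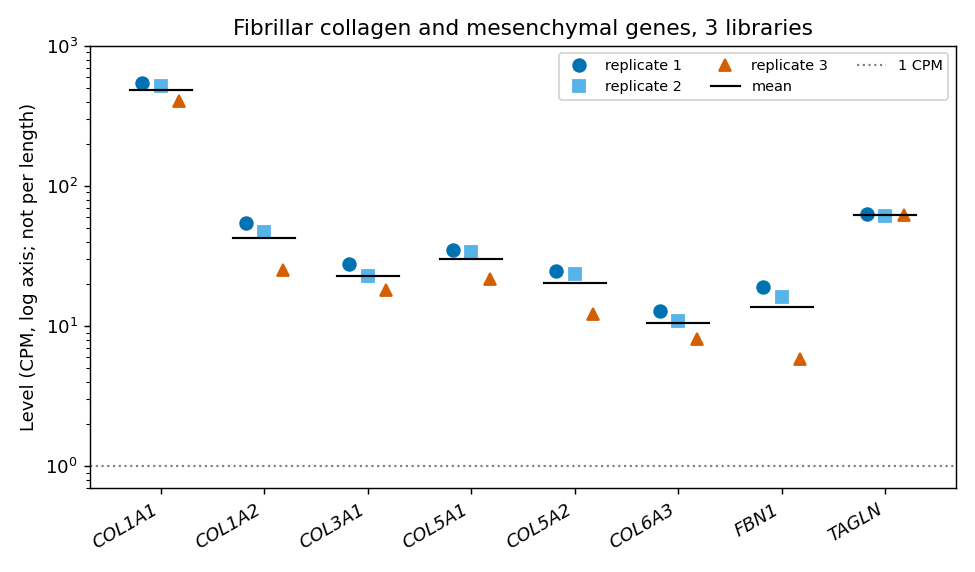
Level of each matched gene in CPM, on a log axis and not per length. Circles, squares and triangles are replicates 1, 2 and 3, short lines the mean of the 3, and the dotted line 1 CPM. Replicate 3 is lowest for 7 genes, from COL1A1 at 404 CPM to FBN1 at 5.79 CPM, and falls between the others for TAGLN at 62.0 CPM.

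The second question was how far the genes moved together between libraries. Pairs of libraries were compared by an exact conditional binomial test on counts, two-sided and Benjamini-Hochberg adjusted over all 23432 genes, with a call at an adjusted p under 0.05 and a difference of at least 1.5-fold. Such a test compares 2 libraries and no conditions, and covers counting error only. It takes counts as independent, so its intervals and p-values are too narrow if some fragments gave several counts.

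Between replicates 1 and 2, 0 of the 8 genes were called. Of all genes, 0.632% were called lower and 0.435% higher in replicate 2. At an unadjusted p under 0.05 with no minimum fold, COL1A1, COL1A2, COL3A1, COL6A3 and FBN1 were lower in replicate 2, and the first 3 and FBN1 passed adjustment. The largest of these differences was 1.21-fold, for COL3A1 (exact 95% interval 1.12 to 1.31, adjusted p = 5.66e-05, exact binomial test).

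Replicate 3 was lower than replicate 1 in 6 of the 8 genes, and none was higher. The background was 10.1% of all genes called lower and 6.14% called higher, or 14.3% lower among the 13719 genes that averaged 1 CPM or more. Against replicate 2, with replicate 3 shared between the comparisons, 4 of 8 genes were lower and 0 higher. The background there was again 10.1% lower, with 6.63% higher, or 14.6% lower among those averaging 1 CPM or more. The 8 genes had a median log2 difference of -0.60 between replicate 3 and the mean of replicates 1 and 2, against -0.05 over the 13719 genes. In bulk samples, fewer cells of a type and less RNA per cell cannot be told apart.

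FBN1 differed most. It was 3.29-fold lower in replicate 3 than in replicate 1 (exact 95% interval 2.85 to 3.80, adjusted p = 9.23e-73, exact binomial test) and 2.81-fold lower than in replicate 2 (2.43 to 3.26). Of the 13719 genes averaging 1 CPM or more, 1.25% were lower in replicate 3 by more. COL1A2 was 2.17-fold lower than in replicate 1 (2.02 to 2.33, adjusted p = 2.34e-109, exact binomial test) and 1.87-fold lower than in replicate 2 (1.74 to 2.01). COL5A2 was close to it, at 2.04-fold (1.84 to 2.27) and 1.95-fold (1.76 to 2.17). These 3 genes encode proteins that enter fibrils or microfibrils, as do COL1A1 and COL3A1, which differed less.

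COL5A1 was 1.62-fold lower in replicate 3 than in replicate 1 and 1.54-fold lower than in replicate 2, just past the minimum fold in the latter. COL3A1 and COL6A3 were 1.53-fold and 1.58-fold lower than in replicate 1. Against replicate 2 they were 1.26-fold and 1.35-fold lower and did not reach the minimum, although their adjusted p values were 2.79e-06 and 3.15e-05 (exact binomial test). COL1A1 was 1.35-fold and 1.28-fold lower in replicate 3 (exact 95% intervals 1.33 to 1.38 and 1.25 to 1.30). Those differences exceeded counting error but stayed inside the minimum fold, and 23.6% of those 13719 genes were lower by more. TAGLN differed by less than counting error in all 3 comparisons. Its ratio of replicate 3 to replicate 1 was 0.974 (0.924 to 1.03, adjusted p = 0.491, exact binomial test), and that of replicate 3 to replicate 2 was 1.02 (0.965 to 1.07).

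**Figure D2:**
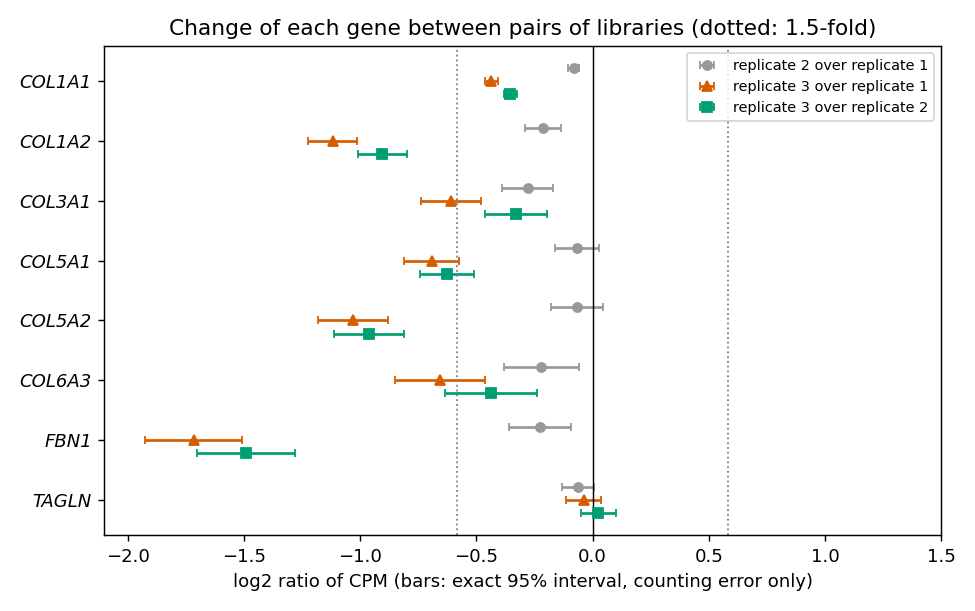
Log2 ratio of CPM for each matched gene between pairs of libraries, with exact 95% intervals for counting error and dotted lines at 1.5-fold. FBN1 lies farthest to the left, at -1.71 (replicate 3 over 1) and -1.49 (replicate 3 over 2), and the 3 points of TAGLN lie between -0.06 and 0.02.

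COL1A1 was then compared with COL1A2 and the other genes within each library, where scaling between libraries plays no part. For 1 count of COL1A2 there were 10.01 counts of COL1A1 in replicate 1 (exact 95% interval 9.63 to 10.4), 10.97 in replicate 2 (10.5 to 11.4) and 16.1 in replicate 3 (15.1 to 17.1). The mean was 12.3 ± 3.25 (SD, n = 3). These are ratios of counts and not of molecules or chains, since no transcript lengths were at hand. The excess of COL1A1 counts had the same sign in 3 of 3 libraries, and the exact sign-flip permutation test gave p = 0.25, the smallest that 3 libraries allow. What does not depend on length is the change of the ratio between libraries. It was 1.61 times as high in replicate 3 as in replicate 1 and 1.46 times as high as in replicate 2 (adjusted p = 1.23e-37 and 3.68e-24, Fisher's exact test, two-sided, adjusted over 3 pairs of libraries). Between replicates 1 and 2 it differed by a factor of 1.10 (adjusted p = 0.00121, Fisher's exact test). Counts of the 2 type I chains were thus not in 1 ratio across the libraries.

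The same comparison was made with the other genes, giving 21 tests with p-values adjusted over them. The ratio of COL1A1 to FBN1 counts was 28.7, 31.7 and 69.8 in replicates 1, 2 and 3. This was the widest range, and the value of replicate 3 was 2.43 times that of replicate 1 (adjusted p = 3.89e-38, Fisher's exact test). COL1A1 to COL5A2 stood at 21.95, 21.7 and 33.1, again with replicate 3 apart. COL1A1 to COL5A1 stood at 15.5, 15.4 and 18.5, and COL1A1 to COL6A3 at 42.8, 47.1 and 49.9. The ratio of COL1A1 to COL3A1, at 19.7, 22.6 and 22.3, was not apart in replicate 3: replicates 2 and 3 differed by a factor of 0.983 (adjusted p = 0.798, Fisher's exact test). Only with TAGLN was the ratio lower in replicate 3, at 8.57, 8.47 and 6.51, a factor of 0.760 against replicate 1 (adjusted p = 1.08e-21, Fisher's exact test). Of the 7 ratios, 7 differed between the libraries of replicates 1 and 3. For replicates 2 and 3 the number was 5, and for the first 2 libraries it was 3. All 7 ratios share the COL1A1 counts, so these results are not independent, and the tests cover counting error only. Ratios of COL1A1 to all other genes were not tested, so the counts have no background share.

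**Figure D3:**
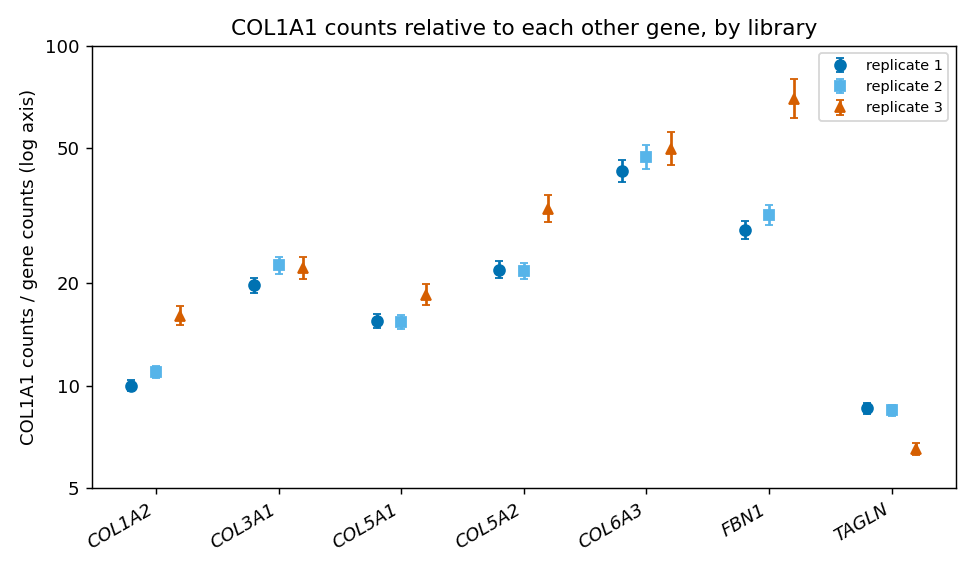
COL1A1 counts divided by the counts of each other matched gene in each library, on a log axis, with exact 95% intervals for counting error. The triangles of replicate 3 lie well above the other libraries for COL1A2 (16.1), COL5A2 (33.1) and FBN1 (69.8), and below them for TAGLN (6.51).

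Likeness of pattern was measured as the Euclidean distance between log2 CPM values over the 3 libraries, each gene centred on its own mean. Among the matched genes, the nearest to COL1A2 was COL5A2, at a distance of 0.105, while COL1A1 lay at 0.511. The nearest to COL1A1 was COL3A1, at 0.153, with COL6A3 at 0.157. A wider search took the 7175 genes with a symbol that averaged 10 CPM or more, COL1A1 and COL1A2 among them. In it, the nearest to COL1A1 were DCLRE1A, MARK1 and PAK2, at distances of 0.00356, 0.00429 and 0.00497. Those nearest to COL1A2 were RFX3, ZFHX2 and RBMS2, at 0.0488, 0.0567 and 0.0626. With 3 libraries many genes share a pattern: 708 lay within 0.1 of COL1A1 and 16 within 0.1 of COL1A2.

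Further genes of the same matrix and cell types were taken from 9 lists with 165 genes, of which 131 matched and all 131 had counts. Of these, 105 were called above 1 CPM, 14 below it, and 12 passed in neither direction (edgeR). The share above 1 CPM was 80.2%, near the 78.3% of all tested genes with a symbol, and the share below was 10.7%, beside 16.1% of those genes. The counts above 1 CPM given by list are descriptions of level only. Replicate 3 against replicate 1 had 38 of the 131 called lower and 1 higher. Against replicate 2, it had 34 lower and 2 higher. Of all genes, 10.1% were called lower in each comparison, with 6.14% and 6.63% higher. For the 13719 genes averaging 1 CPM or more, the shares called lower were 14.3% and 14.6%. These shares are also the background for the counts by list given below, each of which rests on few genes. Between replicates 1 and 2, 3 of the 131 were lower and 0 higher in replicate 2, beside 0.632% and 0.435% of all genes.

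Of the other collagen chains, 19 of 23 were above 1 CPM and 3 below. The 3 with the highest CPM were COL6A2, a partner of COL6A3, at 65.5, 66.3 and 58.7 CPM, COL5A3, another type V chain, at 68.2, 70.9 and 50.4 CPM, and COL11A1, a fibrillar chain of cartilage, at 49.9, 48.9 and 22.7 CPM. COL21A1 was the lowest at 0.278 ± 0.149 CPM (SD, n = 3). In replicate 3, 6 of 23 chains were lower than in replicate 1 and 5 lower than in replicate 2, with 0 and 1 higher. COL14A1 and COL12A1, chains that sit on the surface of fibrils, were 6.65-fold and 3.89-fold lower than in replicate 1, and 6.91-fold and 3.70-fold lower than in replicate 2. COL2A1, the main fibrillar chain of cartilage, had 163, 100 and 36 counts.

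Of 16 matched genes that fold and modify collagen in the endoplasmic reticulum, 13 were above 1 CPM. In replicate 3, 2 were called lower than in replicate 1 and 2 lower than in replicate 2, with CREB3L1 alone in both counts. That is near the 10.1% of all genes, and the 14.3% and 14.6% of those averaging 1 CPM or more. PDIA3, a disulfide isomerase, stood at 827, 816 and 802 CPM. SERPINH1, which encodes the collagen chaperone HSP47, stood at 651, 647 and 568 CPM, and the prolyl isomerase gene PPIB at 158, 153 and 174 CPM. CREB3L1, which encodes a membrane-bound activator of collagen genes in bone, was at 9.69, 8.82 and 5.03 CPM. P4HA3, the lowest, stood at 0.425 ± 0.071 CPM (SD, n = 3).

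Of the genes for processing, cross-linking and breakdown, 13 of 17 were above 1 CPM, and 3 and 4 were lower in replicate 3 than in replicates 1 and 2. MMP2, a gelatinase, stood at 254, 268 and 187 CPM, the cross-linking enzyme LOXL1 at 46.8, 45.4 and 37.3 CPM, and TIMP1, an inhibitor of matrix proteases, at 35.1, 33.1 and 38.2 CPM. The procollagen peptidase gene ADAMTS3 was 3.34-fold and 3.28-fold lower in replicate 3 than in replicates 1 and 2. LOXL4, another cross-linking enzyme, was 2.11-fold and 2.12-fold lower, and MMP14, a membrane-bound collagenase, 1.57-fold and 1.54-fold. MMP13 had 4, 0 and 3 counts. Of 7 collagen receptor genes, 4 were above the level and the other 3 were not distinguished. ITGB1, the shared beta 1 integrin chain, stood at 474, 480 and 383 CPM, the collagen uptake receptor MRC2 at 93.3, 95.8 and 85.8 CPM, and ITGA11, a fibroblast receptor for type I collagen, at 7.11, 7.04 and 8.19 CPM. ITGA1, which pairs with ITGB1, had 296, 200 and 86 counts, and the collagen receptor kinase gene DDR2 had 82, 85 and 29. Both were lower in replicate 3. ITGA2 had 77, 17 and 11 counts, with replicate 1 as the high library.

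Of the elastic fibre and microfibril genes, 14 of 16 were above 1 CPM. The fibulin genes FBLN2 and FBLN1 stood at 207, 208 and 170 CPM and at 141, 138 and 132 CPM, and LTBP4, which holds latent TGF-beta in the matrix, at 127, 137 and 133 CPM. FBN2, the close relative of FBN1, had 795, 731 and 108 counts. It was 5.74-fold and 5.02-fold lower in replicate 3 than in replicates 1 and 2. EMILIN2 was 1.98-fold and 1.93-fold lower, and MFAP4, with 58, 61 and 24 counts, 1.88-fold lower in both. Of the 16 genes, 5 and 4 were lower in the 2 comparisons and 0 higher. FBN3, the third fibrillin gene (named after its values were seen), had 194, 202 and 153 counts and was not called, nor were the 3 genes of highest CPM.

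The matrix glycoproteins and small proteoglycans had the lowest median difference of the 9 lists in replicate 3, at -0.90 log2 units for the 13 genes averaging 1 CPM or more. Of 15 matched genes, 13 were above 1 CPM and 2 below, FAP with OGN. In replicate 3, 9 were lower than in replicate 1 and 7 lower than in replicate 2, and 1 was higher in each, namely OGN with 16, 16 and 28 counts (named after its values were seen). FN1, which encodes fibronectin, the scaffold on which collagen fibrils assemble, stood at 259, 242 and 73.6 CPM, a 3.52-fold and 3.29-fold difference. DCN, which encodes the fibril-binding proteoglycan decorin, was at 9.25, 9.71 and 0.981 CPM, 9.43-fold and 9.90-fold lower in replicate 3. The large proteoglycan gene VCAN had 1445, 1482 and 264 counts. CCN1 and THBS1, matricellular genes of high CPM, were not called, at 331, 307 and 277 CPM and at 103, 98.1 and 88.6 CPM. FAP, a protease of activated fibroblasts, was the lowest at 0.420 ± 0.198 CPM (SD, n = 3).

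Of 9 matched mesenchymal regulators, 4 were above 1 CPM, 3 below and 2 not distinguished. ZEB2, a repressor of epithelial genes, stood at 10.1, 9.09 and 7.92 CPM, and the homeobox genes PRRX2 and PRRX1 at 6.23, 5.80 and 6.99 CPM and at 7.49, 7.69 and 3.56 CPM. PRRX1 was called lower in replicate 3, as were SNAI2, with 126, 88 and 18 counts, and ZEB1, with 50, 45 and 17. FOXC2 had 4, 0 and 2 counts. Of 12 surface and filament markers, 11 were above the level. In replicate 3, 6 of the 12 were lower than in each other library, beside 1945 of all 23432 genes. The intermediate filament gene VIM stood at 84.2, 76.6 and 35.1 CPM, while NES, at 357, 346 and 304 CPM, and the adhesion gene MCAM, at 80.5, 79.0 and 94.5 CPM, were not called. CDH2, PDGFRA and CDH11, which encode N-cadherin, a growth factor receptor and a mesenchymal cadherin, were 3.45-fold, 2.53-fold and 2.49-fold lower in replicate 3 than in replicate 1. Against replicate 2, CDH2, PDGFRA and CDH11 were 3.83-fold, 2.5-fold and 2.13-fold lower. LEPR was the lowest at 0.368 ± 0.125 CPM (SD, n = 3).

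Of 16 matched smooth muscle and contractile genes, 14 were above 1 CPM. In replicate 3, 1 of 16 was lower than in each other library and 0 were higher, so the count of lower genes was no larger than the 10.1% among all genes. Their median difference in replicate 3 was 0.07 log2 units over 15 genes. CNN3, TAGLN2 and MYL9, which encode a calponin, the relative of transgelin found in many cells and a myosin light chain, stood at 495, 501 and 550 CPM, at 415, 414 and 475 CPM and at 293, 286 and 349 CPM. These 3 genes were higher in replicate 3 by less than the minimum fold. MRTFB, a coactivator of serum response factor, was the gene called lower, at 35.9, 36.6 and 19.9 CPM. MYOCD, the smooth muscle coactivator, was below 1 CPM with 12, 16 and 12 counts.

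**Figure D4:**
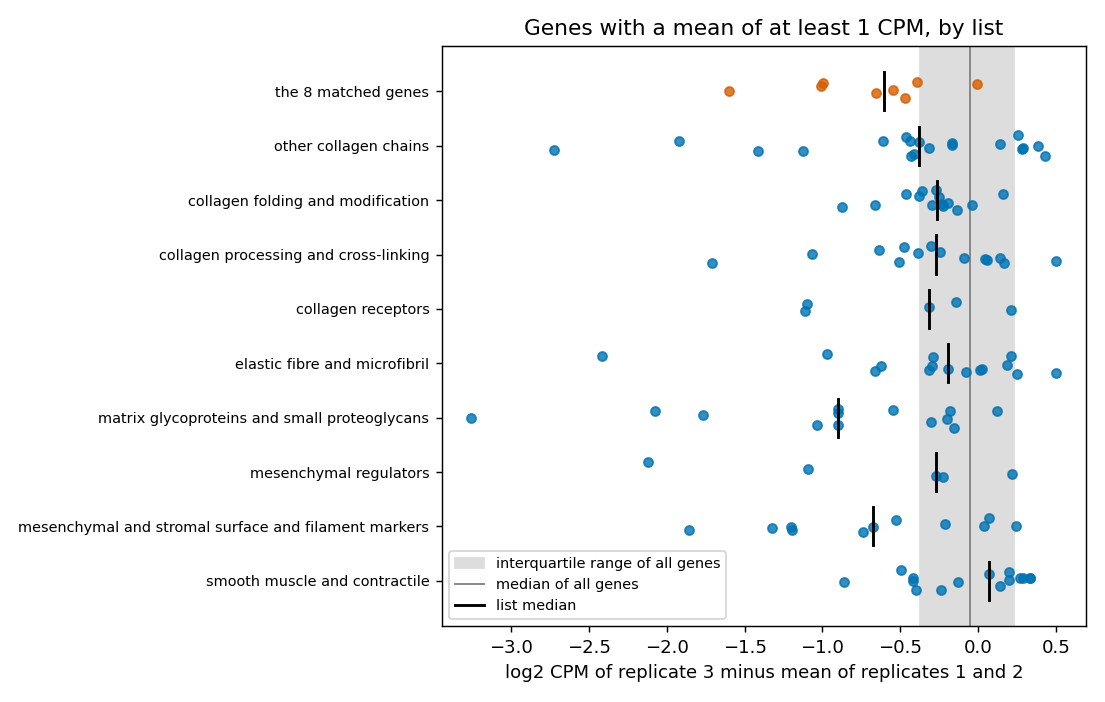
Log2 CPM of replicate 3 minus the mean of replicates 1 and 2 for each listed gene averaging 1 CPM or more (points), with list medians (black lines) and the median and interquartile range of all 13719 such genes (grey line and band, from -0.37 to 0.23). The 8 matched genes have a median of -0.60, and the smooth muscle and contractile genes one of 0.07.

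Markers of cell types were read beside these results, and their part in them was not tested. Since 78.3% of tested genes with a symbol were called above 1 CPM, the counts above it by list only describe level. Of the fibroblast list, 8 of 12 genes matched and 7 were above 1 CPM. Leaving out COL1A1, COL1A2 and COL3A1, the 5 others summed to 61.5, 60.7 and 34.8 CPM in replicates 1, 2 and 3, and none was at 0 in all libraries. PDGFRB, a receptor of mural cells and fibroblasts, made up most of that sum at 39.4, 38.7 and 27.0 CPM, and POSTN, a matrix gene of fibroblasts, had 251, 227 and 124 counts. The smooth muscle list, with 4 of 6 matched and 3 above the level, summed to 27.3, 26.7 and 26.2 CPM. The endothelial list, with 5 of 5 matched and 4 above, summed to 123, 129 and 71.8 CPM, most of it PECAM1, and CDH5 was near 0 with 4, 4 and 5 counts. In the leukocyte list, with 3 of 4 matched, the sums were 3.96, 4.06 and 5.42 CPM, and PTPRC had 2, 4 and 0 counts. Epithelial markers (3 of 6 matched, all above) summed to 1885, 1921 and 1921 CPM and pluripotency markers (9 of 10 matched) to 6630, 6832 and 6527 CPM. The epithelial sum hides unlike values. CDH1, at 696, 732 and 541 CPM, and ESRP1, at 385, 389 and 349 CPM, were lowest in replicate 3. EPCAM, which is in both lists, was highest there. The largest part of the pluripotency sum was DNMT3B, at 2628, 2703 and 2734 CPM, so the sum says little about the other markers. LIN28A was at 674, 725 and 350 CPM, LIN28B at 742, 774 and 470 CPM and SALL4 at 135, 134 and 58.5 CPM. PRDM14 was also lowest in replicate 3, at 126, 133 and 109 CPM. POU5F1, at 974, 972 and 1185 CPM, EPCAM, at 804, 800 and 1032 CPM, and NANOG, at 316, 327 and 349 CPM, were highest in replicate 3.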

How the data were processed

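The submitters' processing notes name featureCounts 1.5.2, STAR 2.5.3a and Trim Galore 0.4.0. Not given in the sources used here are the build, the annotation, the strand setting and how multi-mapping reads were handled, so values of genes with close copies or antisense partners are uncertain. The authors deposited whole-number counts for Ensembl gene IDs in a file for each library. Replicate numbers came from the titles.

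Symbols came from a table of gene IDs. The members and lists were chosen with earlier results of these data known. Named genes were all matched members and, from each list, the 3 of highest and the 1 of lowest mean CPM and up to 3 of largest difference among those called in replicate 3 against both others. Counts were scaled with TMM (edgeR 4.0.16, R 4.3.3, limma 3.58.1). Levels were tested against 1 CPM on the 23432 genes with at least 1 count, with an intercept-only edgeR quasi-likelihood fit (F statistic, trended dispersion). The p used was the larger of that of the F statistic and that of a Poisson likelihood-ratio test. Log2 values used a prior count of 0.5. Pair tests, Fisher's exact tests and Clopper-Pearson intervals (95%) used scipy 1.17.1 in Python 3.11.15, and cover counting error only. All of them take counts as independent. In the pair test, p was 2 times the smaller tail. A count of 0 allows up to 3 counts, or 0.0573, 0.0546 and 0.0736 CPM. The level test and the pair test were tested on simulated counts. The 18 Fisher tests of COL1A1 with genes other than COL1A2 were added after the data were seen. Alternatives were other scaling, DESeq2 1.42.0, a count minimum, halved counts, no minimum fold and leaving out libraries. The RefSeq table was used only for gene order.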

Additional observations from a re-analysis of the deposited data

How the results depend on the processing

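All 8 genes were called above 1 CPM under each scaling, with DESeq2, with at least 10 counts required, with replicates 1 and 2 summed and without each replicate in turn. Leaving out 1 library moved a gene's log2 level by at most 0.29. Fits on 2 libraries ignored the spread of single genes. The number of the 8 genes called between libraries was the same under both other scalings, halved counts and the count minimum. With no minimum fold it was 4 in place of 0 between replicates 1 and 2 and 7 in place of 4 between replicates 2 and 3, all lower in replicate 2 and in replicate 3, and 7 in place of 6 between replicates 1 and 3. Over all genes, that setting gave 735 lower and 871 higher in replicate 2 than in replicate 1 (148 and 102 with the minimum), 5846 and 4914 in replicate 3 than in replicate 1 (2366 and 1439) and 5882 and 4977 in replicate 3 than in replicate 2 (2370 and 1554). With halved counts these were 8 and 1, 1954 and 838, and 1992 and 902. The change of the COL1A1 to COL1A2 ratio passed between all 3 pairs also with halved counts. Between replicates 1 and 2 its adjusted p was then 0.0221 in place of 0.00121 (Fisher's exact test). The mean log2 ratio of 3.59 ran from 3.39 without replicate 3 to 3.73 without replicate 1. Ratios per kilobase, with transcript or coding length, and the order of the genes per kilobase were not run, as no lengths of the counted annotation were at hand. No paired analysis was possible because all libraries belong to 1 group.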

Other observations

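Chains of 1 trimer or fibre were compared with each other across libraries in the same way as COL1A1 with COL1A2. The 5 gene pairs were chosen after their values were seen, and the 15 Fisher's exact tests, two-sided, were adjusted over each other. They cover counting error only. Of the 15, 12 passed. Pairs of genes at large were not tested, so this count has no background share and only describes the chosen pairs.

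The ratio of COL5A1 to COL5A2 counts was 1.42, 1.41 and 1.79 in replicates 1, 2 and 3. It was the same in the first 2 libraries to a factor of 0.999, and 1.26 times as high in replicate 3 as in either (adjusted p = 0.000896 for both, Fisher's exact test). COL6A2 to COL6A3 stood at 5.14, 6.06 and 7.26, and all 3 libraries differed. FBN1 to FBN2 stood at 1.25, 1.22 and 2.19, so that FBN2 was lower in replicate 3 by more than FBN1 (adjusted p = 2.21e-05 against replicate 1 and 1.33e-05 against replicate 2, Fisher's exact test). The widest range belonged to COL11A1 and COL11A2, chains of type XI collagen. Their ratio was 14.4, 19.1 and 5.65, from 2612, 2691 and 926 counts of COL11A1 and 181, 141 and 164 counts of COL11A2. COL5A1 to COL5A3, at 0.516, 0.474 and 0.432, did not differ past the threshold between replicates 2 and 3 (adjusted p = 0.0695, Fisher's exact test).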
